A study of Mus musculus with 6 samples.

Results

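The genes described here form the Myc, Max and Mxd network in hair follicle stem cells (HFSCs), and they were chosen by name. The members are Myc, Mycn, Mycl, Max, Mxd1, Mxd3, Mxd4, Mxi1, Mnt and Mlx, which make 10 of the 56941 genes in the count table. All 10 passed the filter on low counts, as did 32149 genes of the table. Total RNA of HFSCs, sorted by FACS from dorsal skin of female mice as CD34+/α6-integrin+ cells, was sequenced at postnatal day (PD) 68, the second telogen by the study's histology. Each genotype label, WT or Dab2-cKO, was given to 3 biological replicates, all of the strain B6;129S4-Dab2tm1Cpr/J. Both genotypes were Dab2 fl/fl and both received tamoxifen at 75 mg/kg for 5 days. Only the Dab2-cKO mice had K14CreER, in which the K14 promoter limits a tamoxifen-activated Cre to K14-expressing epithelium, so that other cells of the skin keep Dab2. The question was how the expression of this network differed between the genotypes at a stage of the hair cycle that the study matched by histology.

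Myc, Mycn and Mycl are basic helix-loop-helix leucine zipper (bHLHZ) transcription factors that bind DNA as dimers with Max, mostly at the E-box CACGTG, and raise the expression of genes for ribosome production, metabolism and cell division. Mxd1, Mxd3, Mxd4, Mxi1 and Mnt compete for Max and, at the same sites, recruit the Sin3 corepressor with its histone deacetylases. Mlx is a Max-like partner that dimerizes with the sugar-sensing factors Mlxip (MondoA) and Mlxipl (ChREBP), and also with Mxd1, Mxd4 and Mnt. In skin, Myc is known for driving stem cells of the epidermis out of their resting state, and Mxd factors for accompanying growth arrest and differentiation.

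The E-box that these dimers are known to bind was searched for in the promoters of the network genes themselves, and the windows that hold it are shown. RefSeq promoter windows from 250 bases before to 50 bases after the start site were at hand for 9 members, all except Myc. CACGTG, which reads the same on both strands, occurred in 4 of the 9 (44.4%), against 2187 of all 27025 genes in the promoter table (8.09%). The sequences are from RefSeq, each was found again at a single place in GRCm39, and the capitals mark the E-box. Max (chr12:77008995-77009050, minus strand), Mxd4 (chr5:34345243-34345298, minus strand), Mnt (chr11:74721602-74721657, plus strand) and Mlx (chr11:100978051-100978106, plus strand) each held 1 such site, with its first base at position -3, -219, -123 and -40 from the start. Outside the members, Mlxipl (chr5:135118621-135118676, plus strand) held 1 at -98, and Arrdc4, a known target of Mlx dimers (chr7:68399149-68399204, minus strand), 1 at -193. The 100 bases before the RefSeq start of Mycn (chr12:12991838-12991937, minus strand) and of Mycl (chr4:122889624-122889723, plus strand) are shown for comparison and held none. Nor did the whole windows of Mycn, Mycl, Mxd1, Mxd3 and Mxi1. RefSeq starts can differ from the gene starts in GENCODE, whose coordinates are printed below. By those, Mycn begins at 12992915, Mycl at 122889408 and Mnt at 74721338, so their windows lie inside the gene. Sequence upstream of these GENCODE starts was not searched. A match describes the letters only and is no evidence of binding.
Max: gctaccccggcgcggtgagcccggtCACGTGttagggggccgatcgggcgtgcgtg
Mxd4: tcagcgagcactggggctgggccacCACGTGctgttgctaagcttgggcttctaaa
Mnt: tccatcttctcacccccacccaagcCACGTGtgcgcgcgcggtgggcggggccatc
Mlx: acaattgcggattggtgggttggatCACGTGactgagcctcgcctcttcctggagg
Mlxipl: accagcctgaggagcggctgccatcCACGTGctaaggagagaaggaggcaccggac
Arrdc4: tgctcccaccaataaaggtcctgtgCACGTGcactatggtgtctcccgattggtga
Mycn: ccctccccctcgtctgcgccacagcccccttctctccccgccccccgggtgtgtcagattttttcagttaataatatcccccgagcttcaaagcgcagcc
Mycl: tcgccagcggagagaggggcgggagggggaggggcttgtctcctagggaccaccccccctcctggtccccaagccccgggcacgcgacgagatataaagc

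The libraries held between 7040032 and 11696457 counts. A normalized count is a count over the library's effective size (TMM), brought to the average library, and all p-values are from edgeR's quasi-likelihood test, adjusted by Benjamini-Hochberg over the 32149 genes. The targeted gene went against the label: normalized counts of Dab2 averaged 327 (SD 15.4, n = 3) in WT-labelled and 1375 (SD 68.2, n = 3) in Dab2-cKO-labelled libraries. The count table names the latter columns FL-FL, and they were assigned to Dab2-cKO by the series title, so each direction below depends on that assignment and genotypes are given as labelled. Gene-level counts do not show whether the floxed exon was present in the transcripts. The sort markers Cd34 and Itga6 were present in every library, at 510.4 and 959.6 in WT-labelled ones and 1779.5 and 1409 in Dab2-cKO-labelled libraries. Markers of other cells differed between the groups: all 15 hair shaft and inner root sheath markers were lower in Dab2-cKO-labelled libraries (3.06% to 3.37% of counts against 0.0289% to 0.0301%), and all 9 fibroblast markers were higher (1.30% to 1.44% against 3.19% to 3.49%). Markers of the hair shaft and inner root sheath are known to be high in growing follicles. The same is known of the markers of hair germ and anagen progenitors and of proliferation given at the end. Levels of these markers were not alike between the groups, and whether stage or the make-up of the sorted cells differed was not tested. In sorted bulk RNA, fewer cells of a type and less RNA per cell cannot be told apart. The same holds for each network gene below.

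Of the 10 network genes, 6 passed the test, 4 lower and 2 higher in Dab2-cKO-labelled libraries. Over all genes tested, 28.2% passed, 11.5% as lower and 16.8% as higher. Among the 13214 genes within the members' range of mean normalized count, 48.4% passed. That range ran from 47.2 (Mxd3) to 707 (Mxd4). Genes of the lists below can lie above it, so this share is not matched to them in abundance. The 6 are Mycn, Mycl, Mxd1 and Mxd3, which were lower, and Mxd4 and Mxi1, which were higher. The same 6 were those in which no library of one group reached into the other (background over all genes, 38.3%). For each of these 6 the exact 2-sided permutation test gave p = 0.1, the smallest that 3 against 3 allow. Myc, Max, Mnt and Mlx overlapped between the groups and did not pass. The median log2 fold change of the 10 was 0.062, against -0.023 over all genes tested.

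**Figure D1:**
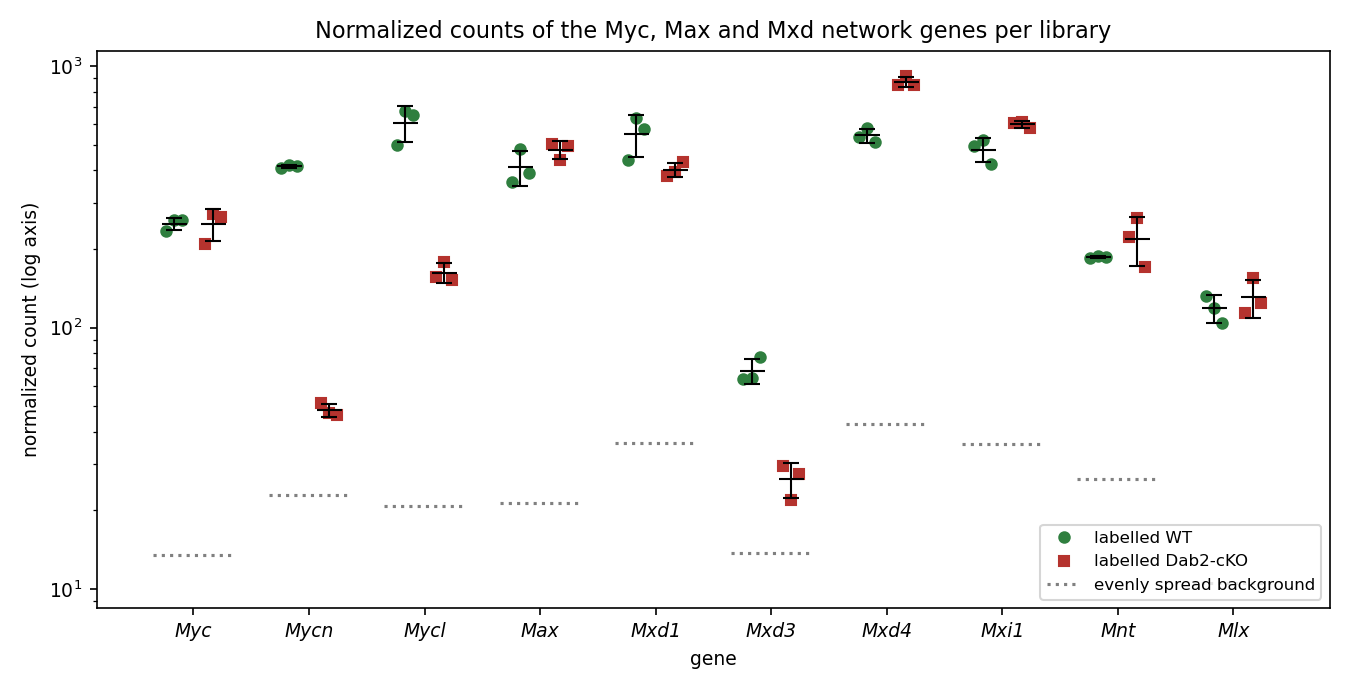
Normalized counts (log axis) of the 10 network genes in each library, with circles for the 3 WT-labelled libraries and squares for the 3 Dab2-cKO-labelled ones, bars for the mean and SD, and a dotted line for the count that an evenly spread background would give. Mycn fell from 414 to 48.3 and Mycl from 609 to 162, while the points of Myc lie between 209 and 272 in both groups.

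Among the 3 activators, Mycn differed most. Mycn (ENSMUSG00000037169, chromosome 12, 12986076 to 12992915) encodes N-Myc, the member known from embryonic and progenitor tissues. Its normalized count was 408, 418 and 417 in WT-labelled libraries and 51.5, 47.2 and 46.4 in Dab2-cKO-labelled libraries. All Dab2-cKO-labelled libraries were far below all WT-labelled ones, and each group was tight. Mycn was 8.53-fold lower (log2 fold change -3.09, standard error 0.14, edgeR adjusted p = 7.61e-31). An evenly spread background, estimated from 1792 chemosensory receptor genes at 4.95 normalized counts per kb of exon, would give 22.8 on its exons. The lower group stood above that mean but within the spread of the background genes, and the fold is of counts that include this background. An lncRNA on the opposite strand, Gm59473, overlaps 16.2% of its exon bases, and the strand setting of the counting is not given in the sources used here.

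Mycl (ENSMUSG00000028654, chromosome 4, 122889408 to 122896282), which encodes L-Myc, was the most abundant activator per kb in WT-labelled libraries. Its normalized count was 501, 674 and 650.2 there and 155, 178 and 152 in Dab2-cKO-labelled libraries. The groups did not overlap, and replicate 1 was the lowest WT-labelled library. Mycl was 3.77-fold lower (log2 fold change -1.91, standard error 0.11, edgeR adjusted p = 5.68e-25). Both Mycn and Mycl passed the test under all 13 alternative analyses, with log2 fold changes from -3.52 to -3.08 and from -2.34 to -1.83.

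Myc itself (ENSMUSG00000022346, chromosome 15, 61857227 to 61862223), the member best studied in adult epidermis, had normalized counts of 234, 258 and 257 in WT-labelled libraries and 209, 272 and 266 in Dab2-cKO-labelled libraries. The groups overlapped, and both the lowest and the highest value came from Dab2-cKO-labelled libraries. Its log2 fold change was -0.013 (95% confidence interval -0.24 to 0.22, edgeR adjusted p = 0.958), so a change beyond about that interval on either side was not seen, and a smaller one was not detectable with these libraries. The value turned to 0.020 without WT replicate 2, 0.016 without WT replicate 3 and 0.087 without Dab2-cKO replicate 1. When counts were scaled by library size alone, which moved the median of all genes to -0.45, the value became -0.44 and passed the test (adjusted p = 0.000967). The value thus lay at about the median of all genes under either scaling.

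Max (ENSMUSG00000059436, chromosome 12, 76984043 to 77009009) encodes the shared partner with which the Myc and Mxd proteins bind DNA. Its normalized count was 362, 484 and 389 in WT-labelled libraries and 504, 437 and 497 in Dab2-cKO-labelled libraries. WT replicate 2 reached into the range of the other group, and the remaining libraries were separated. The log2 fold change of 0.22 (95% confidence interval 0.026 to 0.41) did not pass the test over all genes (edgeR adjusted p = 0.0856). Without WT replicate 2 it was 0.36 and passed (adjusted p = 0.00293), and under scaling by library size alone it turned to -0.21 (adjusted p = 0.0462).

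The repressor arm moved in both directions. Mxd4 (ENSMUSG00000037235, chromosome 5, 34331227 to 34345240), an Mxd gene known from differentiating and resting cells, had normalized counts of 536, 580.5 and 514 in WT-labelled libraries and 847, 917 and 847 in Dab2-cKO-labelled libraries. Every Dab2-cKO-labelled library was above every WT-labelled library. Mxd4 was 1.6-fold higher (log2 fold change 0.68, standard error 0.079, edgeR adjusted p = 2.94e-11) and passed under all 13 alternatives, from 0.25 with library size alone to 0.74 without WT replicate 2. Mxi1 (ENSMUSG00000025025, chromosome 19, 53298852 to 53364241), the Max interactor also called Mxd2, had 495, 520.0 and 424 against 606, 613 and 581. The groups were separated by a smaller gap than those of Mxd4. Mxi1 was 1.25-fold higher (log2 fold change 0.32, standard error 0.087, edgeR adjusted p = 0.00198), a rise lost under upper-quartile scaling (0.18, adjusted p = 0.0728), without WT replicate 3 (0.25, adjusted p = 0.0663) and with library size alone, where the sign turned (-0.10, adjusted p = 0.29).

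Mxd1 (ENSMUSG00000001156, chromosome 6, 86624024 to 86646218), which encodes Mad1 and is known to rise as keratinocytes differentiate, had normalized counts of 438, 631 and 578 in WT-labelled libraries and 381, 395 and 428 in Dab2-cKO-labelled libraries. The groups did not overlap, although WT replicate 1 lay close to the highest Dab2-cKO-labelled library. Mxd1 was 1.37-fold lower (log2 fold change -0.46, standard error 0.097, edgeR adjusted p = 8.14e-05). Mxd3 (ENSMUSG00000021485, chromosome 13, 55472981 to 55477908), an unusual Mxd gene known from proliferating cells, was the least abundant member, with 63.5, 64.1 and 76.9 against 29.6, 21.9 and 27.6. The groups did not overlap, and an even background would give 13.7. Mxd3 was 2.57-fold lower (log2 fold change -1.36, standard error 0.26, edgeR adjusted p = 1.13e-05). Of its exon bases, 31.7% are shared with Prelid1 on the opposite strand, so its counts are uncertain if strand was ignored, and Prelid1 had a log2 fold change of 0.17 (edgeR adjusted p = 0.166).

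Mnt (ENSMUSG00000000282, chromosome 11, 74721338 to 74736836), the broadly expressed antagonist of Myc, had normalized counts of 185, 188 and 186 in WT-labelled libraries and 222, 263 and 170.0 in Dab2-cKO-labelled libraries. WT-labelled libraries were nearly equal, and Dab2-cKO-labelled libraries lay on both sides of them. The log2 fold change of 0.23 (95% confidence interval -0.029 to 0.49) did not pass (edgeR adjusted p = 0.207). Without Dab2-cKO replicate 3 it was 0.36 (adjusted p = 0.0426), and with library size alone it turned to -0.20 (adjusted p = 0.207).

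In the Mlx branch, Mlx (ENSMUSG00000017801, chromosome 11, 100978080 to 100983043) had normalized counts of 132, 119 and 104 in WT-labelled libraries and 113, 154 and 124 in Dab2-cKO-labelled libraries. The groups overlapped, and the log2 fold change of 0.14 (95% confidence interval -0.18 to 0.45, edgeR adjusted p = 0.607) turned to -0.023 without Dab2-cKO replicate 2. Psmc3ip overlaps 51.9% of the exon bases of Mlx on the opposite strand and was itself lower (log2 fold change -0.79, edgeR adjusted p = 0.000348), so counts of Mlx are uncertain if strand was ignored. Both Mlxipl and Mlxip were higher. Mlxipl, known as a glucose-responsive factor of lipid synthesis, had 121, 118 and 137 against 255, 349 and 254. With no overlap between the groups, it was 2.27-fold higher (log2 fold change 1.18, standard error 0.13, edgeR adjusted p = 6.37e-12). Mlxip rose from 463 ± 61.1 to 590.2 ± 26.7 (SD, n = 3 each), a log2 fold change of 0.35 (edgeR adjusted p = 0.00115) that turned to -0.076 with library size alone. Mga, a large Max partner with a second DNA-binding domain of the T-box kind, was at 1209 ± 64.2 and 1237 ± 45.2 (SD, n = 3 each), a log2 fold change of 0.033 (95% confidence interval -0.11 to 0.18, edgeR adjusted p = 0.808).

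**Figure D2:**
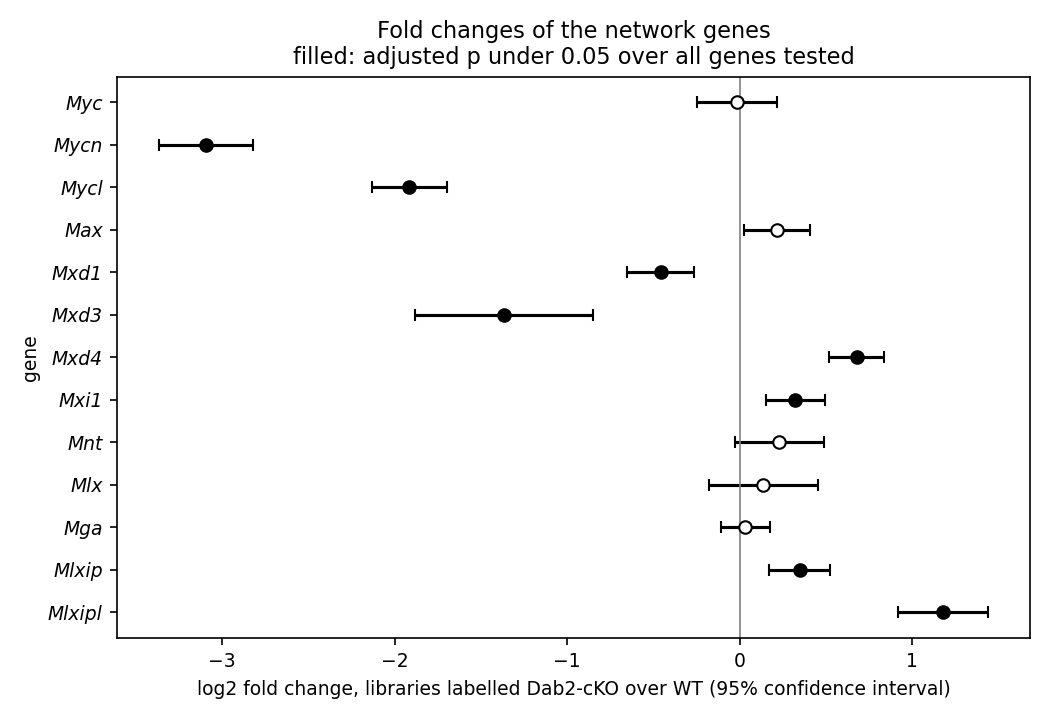
Log2 fold changes (horizontal axis) of the 10 network genes and the 3 other bHLHZ genes in Dab2-cKO-labelled libraries over WT-labelled ones, with 95% confidence intervals, filled where edgeR's adjusted p was under 0.05. Mycn (-3.09), Mycl (-1.91) and Mxd3 (-1.36) lie farthest to the left, and Mlxipl (1.18) and Mxd4 (0.68) farthest to the right.

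Levels of different genes were compared as normalized counts per kb of annotated exon. In WT-labelled libraries, Mycl led with 145 ± 22.3 per kb (SD, n = 3). Max, Myc and Mycn followed at 95.6 ± 14.9, 91.5 ± 5.05 and 89.8 ± 1.25 per kb, levels that did not differ beyond their spread. Mxd1 at 74.9 ± 13.6 per kb was next and reached into the spread of Max and Myc. Mxi1 at 66.2 ± 6.90, Mxd4 at 62.8 ± 3.90 and Mlx at 55.5 ± 6.62 per kb lay within the spread of Mxd1 and of each other. They were followed by Mnt (35.02 ± 0.277) and Mxd3 (24.7 ± 2.75). The order changed in Dab2-cKO-labelled libraries, where Max (111 ± 8.46 per kb), Mxd4 (100.5 ± 4.69) and Myc (91.1 ± 12.7) came first and were not separated beyond their spread. Mxi1 (82.7 ± 2.36 per kb) came next, within the spread of Myc, ahead of Mlx (61.0 ± 9.92) and Mxd1 (54.8 ± 3.29), which overlapped, and of Mnt (41.1 ± 8.81) and Mycl (38.5 ± 3.38), which overlapped too. Mycn (10.5 ± 0.599 per kb) and Mxd3 (9.54 ± 1.45) were last, both below the level under which 95% of the chemosensory receptor genes lay (12.8 per kb). Orders between genes depend on the length used: per kb of coding sequence, Mxd4 (867), Max (857) and Mxd1 (806) stood above Mycl (551) in WT-labelled libraries.

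The make-up of the Myc family differed between the groups. Summed per kb, the 3 Myc genes gave 293, 345 and 339 in WT-labelled libraries and 125, 152 and 144 in Dab2-cKO-labelled libraries. Myc made up 28.1% ± 0.971 of this sum in WT-labelled libraries and 64.9% ± 3.24 in Dab2-cKO-labelled libraries, Mycn 27.7% ± 2.15 and 7.56% ± 1.22, and Mycl 44.2% ± 3.12 and 27.6% ± 2.24 (SD, n = 3 each). Thus Mycl was the main Myc transcript in one group and Myc in the other, although the level of Myc itself overlapped. The sum of Mxd1, Mxd3, Mxd4, Mxi1 and Mnt per kb moved less, with 248, 284 and 259.6 against 286, 302 and 278, and these groups overlapped. Within that sum, Mxd4 went from 23.8% ± 1.06 to 34.8% ± 0.521 and Mxd1 from 28.3% ± 3.62 to 19.0% ± 1.73 (SD, n = 3 each). The ratio of the Myc sum to the repressor sum was 1.18, 1.22 and 1.31 in WT-labelled libraries and 0.436, 0.504 and 0.516 in Dab2-cKO-labelled libraries. This ratio is taken within a library, so no scaling of libraries changes it, but its size rests on the lengths used. Per kb of coding sequence, a choice added after the data were seen, it was 0.406, 0.416 and 0.454 in WT-labelled libraries and 0.120, 0.135 and 0.132 in Dab2-cKO-labelled libraries. The groups were apart and lower in Dab2-cKO-labelled libraries with either length, whereas the place of the ratio relative to 1 depended on the length. By coding length the repressor sum did not overlap either, at 2263 to 2650 against 2768 to 2919 per kb, and Mycl still led in WT-labelled libraries (53.1% ± 3.29) and Myc in Dab2-cKO-labelled ones (50.01% ± 3.51, SD, n = 3 each). Transcript sums say nothing of the amounts of the proteins.

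**Figure D3:**
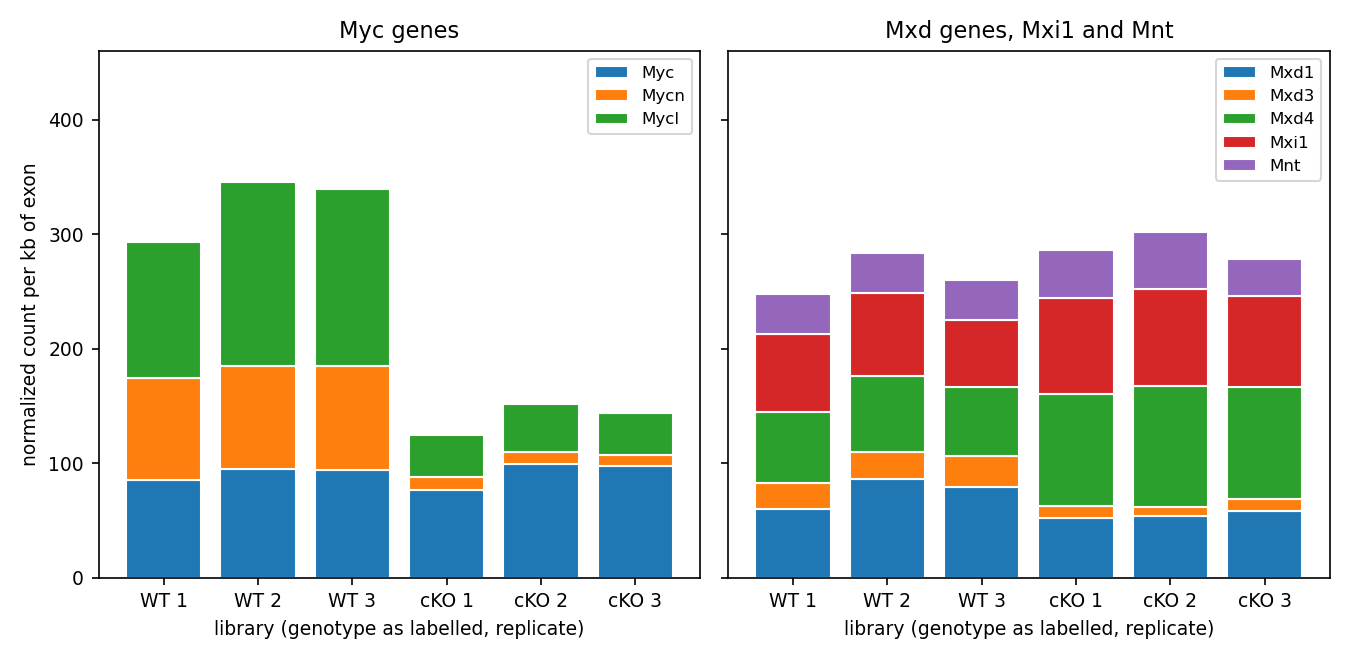
Normalized counts per kb of exon (vertical axis) in each library, stacked by gene, for the Myc genes (left) and for the Mxd genes, Mxi1 and Mnt (right). The Myc stack reaches 293 to 345 in WT-labelled libraries and 125 to 152 in Dab2-cKO-labelled libraries, with less Mycn and Mycl, while the repressor stack lies between 248 and 302 throughout.

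For the member with the largest fall and the one with the largest rise, the genes of most like pattern were found by the root mean square difference of centred log2 normalized counts over the 6 libraries, among the 10845 genes whose mean normalized count reached 100. Nearest to Mycn were 2310007B03Rik (0.065), Lef1 (0.117), Bambi (0.129), Gabrp (0.144) and Samd5 (0.174). Lef1, a DNA-binding partner of β-catenin, went from 1001 to 118 normalized counts, and Bambi, a pseudoreceptor of the TGF-β family, from 548 to 59.3. Lef1 and Bambi belong to the list of markers of hair germ and anagen progenitors, of which all 9 were lower. Nearest to Mxd4 were Ank (0.016), Msrb3 (0.017), Atrnl1 (0.024), Capg (0.026) and Wwc2 (0.029). With 6 libraries in 2 groups this likeness mostly reflects the size of the difference between the groups.

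The Sin3 corepressor, which Mxd proteins recruit, had a share of called genes near that of genes in the members' range of counts. Of its 13 genes tested, 4 fell, 2 rose and 7 did not pass. Thus 46.2% passed, beside 48.4% of genes in that range and 28.2% of all genes. The median log2 fold change was -0.037 (Brms1 did not pass the filter). Sap30 (-0.45) and the deacetylase gene Hdac1 (-0.33) fell most. Suds3 (0.24, edgeR adjusted p = 0.00992) and Sin3b (0.22, edgeR adjusted p = 0.0466) were the 2 that rose, and neither passed under upper-quartile scaling, while library size alone turned both (-0.19 and -0.20). The number of higher genes was 1 without WT replicate 1, WT replicate 3, Dab2-cKO replicate 1 or Dab2-cKO replicate 2, and 0 without Dab2-cKO replicate 3.

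Among 16 coactivators and partners of Myc, 8 fell, 2 rose and 6 did not pass (median log2 fold change -0.22). Thus 62.5% passed, beside 28.2% of all genes and 48.4% of genes in the members' range of counts. Bin1, an adaptor protein that binds Myc and restrains it, had normalized counts of 186, 192 and 184 in WT-labelled libraries and 750.5, 834 and 790.2 in Dab2-cKO-labelled libraries. The groups were widely apart, a 4.22-fold rise (log2 fold change 2.08, standard error 0.094, edgeR adjusted p = 1.82e-30). Actl6a, a subunit of chromatin-remodelling and acetyltransferase complexes, fell (-0.64, edgeR adjusted p = 4.43e-06), as did Hcfc1, a cofactor that binds Myc directly (-0.54, edgeR adjusted p = 8.57e-09). Cdk9, the kinase of the elongation factor P-TEFb, had a log2 fold change of 0.34 (edgeR adjusted p = 0.0242) with overlapping groups, passed in 5 of 13 alternatives and turned to -0.084 with library size alone. Without WT replicate 1, WT replicate 3, Dab2-cKO replicate 1 or Dab2-cKO replicate 3, the number of higher genes was 1.

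Of 15 genes for the turnover of Myc protein, 7 fell, 3 rose and 5 did not pass (median log2 fold change -0.16). The share passing was 66.7%, beside 28.2% of all genes and 48.4% of genes in the members' range of counts. The 2 largest falls were in genes known to stabilize Myc or to act with it. Cip2a, which shields Myc from phosphatase PP2A, went from 233 ± 8.32 to 115 ± 3.61 normalized counts (SD, n = 3 each), a log2 fold change of -1.01 (edgeR adjusted p = 1.44e-09). Skp2, a ubiquitin ligase subunit that targets Myc and also serves its activity, fell by 0.82 on the log2 scale (edgeR adjusted p = 4.6e-07). The 2 largest rises were in Stub1, a ubiquitin ligase that works with chaperones (0.61, edgeR adjusted p = 7.67e-06), and Ppp2r5a, the PP2A subunit that directs this phosphatase to Myc (0.46, edgeR adjusted p = 7.7e-07), and neither rise passed with library size alone. Fbxw7, the ligase subunit best known for degrading Myc, fell by 0.25 on the log2 scale. The number of lower genes was 4 without WT replicate 2.

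Of 6 genes known to regulate Myc in skin, or to act beside it there, 3 fell, 2 rose and Pvt1 did not pass. That is 83.3% passing, beside 28.2% of all genes and 48.4% of genes in the members' range of counts. Prdm1 (Blimp1) and Ovol1, both known as repressors of Myc in skin, were lower. Prdm1 had 542, 594 and 587 against 244, 277 and 265 normalized counts, a log2 fold change of -1.14 (edgeR adjusted p = 1.01e-16). Ovol1 had 393, 484 and 443 against 157, 148 and 155, a log2 fold change of -1.52 (edgeR adjusted p = 2.53e-19). Both were lower in every Dab2-cKO-labelled library than in any WT-labelled one, while Myc overlapped. Klf4, a barrier factor that antagonizes proliferation, rose (0.96, edgeR adjusted p = 2.54e-18), and so did Rac1, a GTPase that restrains Myc through its phosphorylation (0.49, edgeR adjusted p = 5.63e-08, not passing with library size alone). Nsun2 (Misu), an RNA methyltransferase and known Myc target of the epidermis, fell (-0.76, edgeR adjusted p = 1.03e-12). Pvt1, the lncRNA gene next to Myc, stood at 176 ± 5.54 and 149 ± 11.5 (SD, n = 3 each), and an even background would give 108.

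Known targets that Myc raises were lower as a group in Dab2-cKO-labelled libraries. Of 85 such genes in 4 lists, 64 fell, 7 rose and 14 did not pass, with a median log2 fold change of -0.50. That is 83.5% passing, beside 28.2% of all genes and 48.4% of genes in the members' range of counts. Some of the targets lie above that range, such as Eif3b (mean normalized count 1598) and Ldha (1735), so neither share is matched to them. The number of lower genes stayed between 58 and 62 with each library left out. These lists were chosen with earlier results of these data known. In ribosome biogenesis, 28 of 33 fell and none rose (median -0.53), led by Nop56, a core protein of the particles that modify ribosomal RNA (-1.05), and the pseudouridine synthase gene Dkc1 (-0.88). In translation and chaperones, 13 of 15 fell and none rose (median -0.44), led by the initiation factor genes Eif3b (-0.75) and Eif2s1 (-0.70). In the cell cycle, 9 of 11 fell and none rose (median -0.69), led by E2f2 (-1.94) and the replication licensing gene Mcm5 (-1.04). The absence of rises in these 3 lists held in each of the 13 alternatives.

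The metabolic targets were split. Of 26 genes, 14 fell, 7 rose and 5 did not pass (median log2 fold change -0.46). The share passing was 80.8%, beside 28.2% of all genes and 48.4% of genes in the members' range of counts. Ctps1, the CTP synthase that proliferating cells rely on, had normalized counts of 1375, 1623 and 1464 in WT-labelled libraries and 255, 222 and 201 in Dab2-cKO-labelled libraries. The groups were far apart, a 6.57-fold fall (log2 fold change -2.72, standard error 0.088, edgeR adjusted p = 9.88e-39). Slc7a5, the large neutral amino acid transporter, fell by 1.55 on the log2 scale (edgeR adjusted p = 7.69e-16), and Odc1, the first enzyme of polyamine synthesis, by 1.18. Against this, the glutamine transporter gene Slc1a5 rose from 207 ± 16.3 to 602 ± 24.1 (SD, n = 3 each), a log2 fold change of 1.54 (edgeR adjusted p = 2.56e-22). Ldha, for lactate dehydrogenase, rose too, from 1073 ± 50.3 to 2397 ± 182 (SD, n = 3 each), a log2 fold change of 1.16 (edgeR adjusted p = 6.75e-23). With library size alone, 2 rather than 7 genes of this list were higher.

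Of 9 genes known to be lowered by Myc, 5 rose, 1 fell and 3 did not pass (median log2 fold change 0.46, and 0.033 with library size alone). Thus 66.7% passed, beside 28.2% of all genes and 48.4% of genes in the members' range of counts. Gas1, a growth arrest gene, had 136, 141 and 111 against 288, 287 and 283 normalized counts, a log2 fold change of 1.15 (edgeR adjusted p = 3.49e-12). Ndrg2 rose by a log2 fold change of 1.07 (edgeR adjusted p = 1.83e-18). Cdkn1a (-0.13), Cdkn1b (-0.16) and Cdkn2b (-0.036), the cell-cycle inhibitors that Myc and Miz1 are best known to repress, did not pass. The gene that fell was Gadd45a (-0.65), and the number of lower genes was 0 without WT replicate 3 and 2 without Dab2-cKO replicate 2.

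The 6 targets of Mlx with MondoA or ChREBP were split, 3 higher and 3 lower. That is 100% passing, beside 28.2% of all genes and 48.4% of genes in the members' range of counts. Txnip, Fasn and Acaca lie above that range (mean normalized counts of 1776, 3506 and 1500). Txnip, which restrains glucose uptake, had 622, 693 and 640.0 against 2863, 2919 and 2917 normalized counts. It was 4.44-fold higher, with the groups far apart (log2 fold change 2.15, standard error 0.073, edgeR adjusted p = 2.13e-37). Its relative Arrdc4, whose promoter E-box is printed above, rose as well (0.97, edgeR adjusted p = 1.94e-13). Both are known as targets of MondoA. Among enzymes of glycolysis, lipid synthesis and fructose use, known as targets of ChREBP, Pklr (-0.96), Acaca (-0.57) and Tkfc (-0.55, edgeR adjusted p = 0.0206) were lower. Pklr was near the floor, at means of 63.2 and 32.4 normalized counts where an even background would give 18.6. Its 8.60 per kb in Dab2-cKO-labelled libraries lay below the level under which 95% of the chemosensory receptor genes lay (12.8 per kb). The call of Tkfc was lost without WT replicate 2, WT replicate 3 or Dab2-cKO replicate 1, at log2 fold changes of -0.52, -0.52 and -0.52, and with DESeq2 (-0.55, adjusted p = 0.0580). Fasn, which like Acaca encodes an enzyme of lipid synthesis, rose (0.27, edgeR adjusted p = 0.00133), which upper-quartile scaling lost (0.13) and library size alone turned (-0.15).

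**Figure D4:**
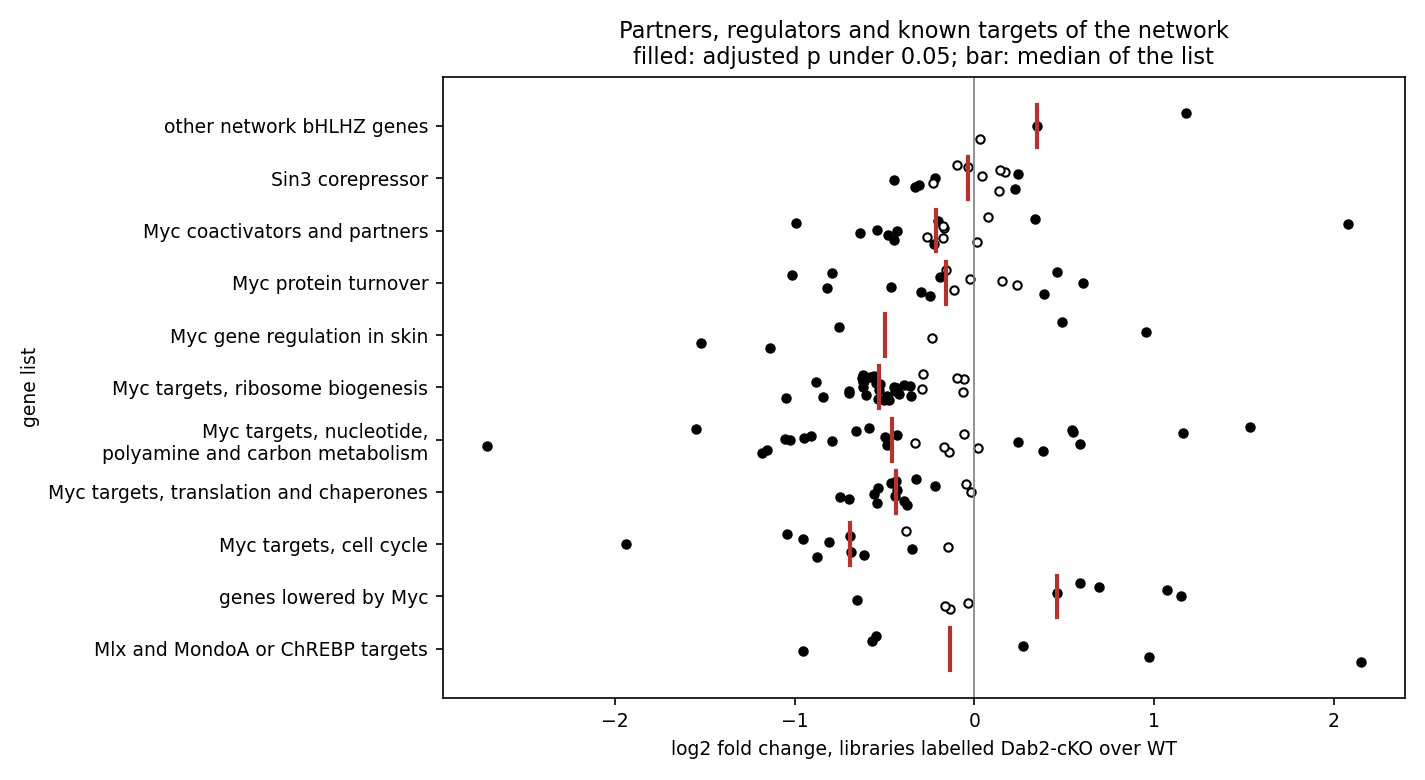
Log2 fold changes (horizontal axis) of the genes of each list of partners, regulators and targets in Dab2-cKO-labelled libraries over WT-labelled ones, filled where edgeR's adjusted p was under 0.05, with a bar at the list's median. The 4 lists of Myc targets have medians between -0.69 and -0.44, and the genes lowered by Myc one of 0.46.

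Promoter E-boxes were counted in the same lists as a description. CACGTG was found in 7 of 14 promoters of the translation and chaperone targets (50%), 5 of 19 of the metabolic targets (26.3%), 7 of 28 of the ribosome biogenesis targets (25%), 1 of 9 of the cell cycle targets (11.1%) and 0 of 7 of the genes lowered by Myc, beside 8.09% of all genes. Among the members, those with the site were Max, Mnt and Mlx, which overlapped between the groups, and Mxd4, which rose.

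Other lists differed between the groups as well. All 12 proliferation markers were lower (sums of 11300 to 12337 normalized counts in WT-labelled libraries against 3583 to 3649). None of them is in the target lists, but the proliferation list and the cell cycle targets both hold Mcm genes. Lower too were all 9 markers of hair germ and anagen progenitors (7234 to 8471 against 1290 to 1387) and 6 of 7 melanocyte markers. Higher were all 9 fibroblast markers (102154 to 123528 against 356337 to 376121), all 7 endothelial markers, 7 of 9 immune markers and 9 of 10 genes of dissociation stress. Of 10 markers of differentiated epidermis 6 were higher and 2 lower, and of 13 HFSC bulge markers 5 were higher and 7 lower. None of the defining markers was at 0 in all 6 libraries. The transcripts of these markers thus differed between the groups along with Mycn, Mycl, Mxd1, Mxd3, Mxd4, Mxi1 and the target lists. The part of the markers in those differences was not tested.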

How the data were processed

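Total RNA (5 ng) of FACS sorted HFSCs was made into libraries with a SMARTer stranded pico kit for low input. Per the labels' processing notes and the methods, the authors trimmed reads with fastp 0.23.4, aligned them to GRCm39 with HISAT2 2.2.1 and counted them per gene with featureCounts 2.0.6. The deposited counts are not normalized, and the 6 libraries hold 7040032 to 11696457 of them. Whether the counting used strand, multi-mapped reads or molecular identifiers is not given in the sources used here. The deposited table of the authors' own DESeq2 1.42.0 comparison holds fold changes and p-values and was not used.

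Counts were filtered with filterByExpr of edgeR 4.0.16 (R 4.3.3), normalized by TMM and compared by the quasi-likelihood test with robust dispersions (common biological coefficient of variation 10.9%) and Benjamini-Hochberg adjustment over the 32149 genes kept, with a threshold of 0.05. No set test was run. The members, the lists and the rule for named genes were chosen with earlier results of these data known. Named were Dab2, all members, Mga, Mlxip and Mlxipl, and, from each list, every gene if it had 6 or fewer, otherwise the 2 largest called rises and falls at a mean normalized count of 100 or more. Gadd45a, Fbxw7, Odc1, Cdkn1a, Cdkn1b, Cdkn2b, Psmc3ip and Prelid1 were named after their values were seen. GENCODE M39 supplied gene coordinates, exon lengths and overlaps between genes, to which 98.9% of the identifiers matched. Cip2a, Ctps1, Ppat and the markers Krt85 and Itgam were matched by identifier.

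Replicates of a group differed by more than sampling noise (chi-square per degree of freedom 3.54 to 11.7), and no sample was left out. The study calls the libraries of a genotype independent biological replicates. It does not say outright that each came from a separate animal. The p-values therefore measure only the spread between these samples, part of which may be technical. The 95% confidence intervals are from the same fit, so they too cover only counting error and the spread between these samples. On simulated counts for these 32149 genes and this comparison, the test recovered 31% of 1.5-fold and 72% of 3-fold changes. It called 0.0344% of the unchanged genes. The simulation changed 100 genes per fold and set no difference in library composition, unlike these data, so its rates may not hold here. The fit was repeated with DESeq2, with 3 other scalings (upper quartile, library size only, and TMM leaving out mitochondrial and the 100 most abundant genes), with no filter or a mean count of 50 as filter, with a replicate block, and leaving out each library. Levels were also taken per coding length.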

Additional observations from a re-analysis of the deposited data

How the results depend on the processing

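The calls of Mycn, Mycl, Mxd1 and Mxd4 held, with their direction, under all 13 alternatives, and that of Mxd3 under the 12 that could be run, since its mean count is below 50. That of Mxi1 held under 10. Of all genes, 5387 were higher and 3682 lower. Scaling moved this split most: upper-quartile scaling gave 4281 and 5561, library size only 2686 and 11168 (13854 in all), and a mean count of at least 50 gave 4461 and 4062. The median log2 fold change of all genes became -0.17 and -0.45 under these 2 scalings, and other values shift with it. The libraries labelled Dab2-cKO have 44.5% to 46.6% of their counts in the 100 most abundant genes, against 33.1% to 33.9%.

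Under upper-quartile scaling, log2 fold changes were 0.18 for Mxi1, -0.0065 for Mlx and -0.11 for Mga. The number of higher network genes was 1, counts were 0 higher for the Sin3 corepressor, 7 lower for the Sin3 corepressor, 1 higher for coactivators and 3 lower for genes lowered by Myc, and medians were 0.21 for the other bHLHZ genes, -0.18 for the Sin3 corepressor, -0.36 for coactivators, -0.30 for turnover, -0.64 for regulation in skin, -0.68 for ribosome biogenesis, -0.60 for metabolism, -0.58 for translation, -0.84 for cell cycle, 0.32 for genes lowered by Myc and -0.28 for Mlx targets. Under library size only, log2 fold changes were -0.44 for Myc, -0.21 for Max, -0.10 for Mxi1, -0.20 for Mnt, -0.29 for Mlx, -0.39 for Mga, -0.076 for Mlxip, -0.19 for Suds3, -0.20 for Sin3b, -0.084 for Cdk9 and -0.15 for Fasn. The number of higher network genes was 1, counts were 1 higher for the other bHLHZ genes, 1 lower for the other bHLHZ genes, 0 higher for the Sin3 corepressor, 11 lower for the Sin3 corepressor, 1 higher for coactivators, 14 lower for coactivators, 0 higher for turnover, 1 higher for regulation in skin, 2 higher for metabolism, 3 lower for genes lowered by Myc and 2 higher for the 4 Myc target lists, and medians were -0.076 for the other bHLHZ genes, -0.46 for the Sin3 corepressor, -0.64 for coactivators, -0.59 for turnover, -0.92 for regulation in skin, -0.96 for ribosome biogenesis, -0.88 for metabolism, -0.86 for translation, -1.12 for cell cycle, 0.033 for genes lowered by Myc and -0.56 for Mlx targets.

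DESeq2 gave 1 higher for the Sin3 corepressor and 1 higher for coactivators. TMM without mitochondrial and abundant genes gave 1 higher for the Sin3 corepressor and a median of -0.72 for cell cycle. No low-count filter gave 1 higher for the Sin3 corepressor and medians of -0.19 for turnover and -0.73 for cell cycle. A mean count of at least 50 gave 1 higher for the Sin3 corepressor, 1 higher for coactivators and 3 lower for genes lowered by Myc, a log2 fold change of -0.054 for Mga, and medians of -0.12 for the Sin3 corepressor, -0.30 for coactivators, -0.24 for turnover, -0.58 for regulation in skin, -0.62 for ribosome biogenesis, -0.54 for metabolism, -0.52 for translation, -0.78 for cell cycle, 0.37 for genes lowered by Myc and 0.19 for Mlx targets, the last without Pklr, whose mean count is below 50. For changes without a cause given, the cause was not tested.

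With each library left out in turn, log2 fold changes ran over -0.11 to 0.087 for Myc, 0.14 to 0.36 for Max, 0.25 to 0.40 for Mxi1, -0.023 to 0.22 for Mlx and 0.053 to 0.36 for Mnt, and the number of higher network genes over 1 to 3. Medians ran over -0.79 to -0.66 for cell cycle, 0.29 to 0.47 for the other bHLHZ genes, -0.54 to -0.37 for metabolism, -0.48 to -0.35 for translation, 0.40 to 0.52 for genes lowered by Myc, -0.12 to 0.028 for the Sin3 corepressor and -0.55 to -0.47 for regulation in skin, and counts over 0 to 2 higher for the Sin3 corepressor, 1 to 2 higher for coactivators, 4 to 7 lower for turnover and 0 to 2 lower for genes lowered by Myc. Mga was at -0.0083 without Dab2-cKO replicate 2 and -0.0029 without Dab2-cKO replicate 3.

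Per kb of coding sequence, levels in libraries labelled WT and Dab2-cKO were 183 and 183 for Myc, 299 and 34.9 for Mycn, 551 and 147 for Mycl, 857 and 998 for Max, 806 and 589 for Mxd1, 110.3 and 42.6 for Mxd3, 867 and 1388 for Mxd4, 542 and 678 for Mxi1, 105 and 123 for Mnt and 133 and 146 for Mlx, an order that differs from that per kb of exon. The ratio of the Myc sum to the repressor sum became 0.425 and 0.129, a choice added after seeing the data, against 1.24 and 0.485.

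Same-numbered libraries of the groups shared only a number (correlations of deviations 0.135, -0.0475 and 0.105). With a replicate block, 8967 genes were called, against 9069, and the network had 2 higher and 4 lower genes. Depth limits small changes in Mxd3 and Mlx, the members with the fewest counts.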
